A study of Mus musculus with 24 samples.

Results

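The Klk1 tissue kallikreins of the mouse, secreted serine proteases encoded side by side on chromosome 7, were followed across sorted Atoh1-expressing cells of the small intestine (SI) and colon. The group held 10 genes of the 45513 counted: Klk1, Klk1b1, Klk1b3, Klk1b4, Klk1b5, Klk1b11, Klk1b22, Klk1b24, Klk1b26 and Klk1b27. They were chosen by name because members of the family differed between the genotypes in SI, so values and calls of that difference describe the choice and support nothing. Another 5 annotated Klk1 genes and pseudogenes (Klk1b7-ps, Klk1b8, Klk1b9, Klk1b16 and Klk1b21) were not in the list and are given only where they bear on the reads.

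RNA was sequenced in bulk from 24 libraries in 4 groups of 6. Mice carried CreERT2 downstream of Atoh1, the basic helix-loop-helix factor of intestinal secretory cells, and an R26RtdTom reporter. In Atoh1(WT)CreERT2 mice (WT) the Atoh1 protein was unaltered, and in Atoh1(9S/T-A)CreERT2 mice (9S/T-A) 9 serine or threonine residues that precede proline were replaced with alanine. All mice, WT included, thus carried the knocked-in Cre and the reporter, both alleles of Atoh1 were targeted, and adults on a C57BL/6 background received a single 3 mg dose of tamoxifen. Cells were taken the day after, from crypt-enriched fractions of the proximal SI or the colon, as EpCAM+tdTom+ live cells. The sort thus selected for cells in which Atoh1 had been active, and its purity was not tested. Libraries were numbered 2 to 7 in each group, with numbers 2, 5 and 7 female and 3, 4 and 6 male.

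Tissue kallikrein cuts kininogens to release kinins such as bradykinin, which act on the B2 receptor (Bdkrb2) and the inducible B1 receptor (Bdkrb1) and are destroyed by peptidases such as angiotensin-converting enzyme (Ace) and neprilysin (Mme). In the mouse, Klk1 encodes the true tissue kallikrein, and repeated gene duplication produced the neighbouring Klk1b genes. Several of these are known from the submandibular gland, among them Klk1b22 and Klk1b26, which encode proteins that bind epidermal growth factor.

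The 10 genes lay within 263 kb of chromosome 7 on the plus strand (GRCm38), from Klk1b1 at chr7:43966751-43971318 to Klk1 at chr7:44225437-44229617, with Klk1b5 its nearest family neighbour at chr7:44216474-44220703. How alike their transcripts are matters for what a 50-base read can tell, so the stretch of coding sequence that the family shares most closely is shown first. It lies in 1 exon, covers coding bases 420 to 479 of Klk1 (chr7:44228741-44228800), and is printed with capitals at each base that differs from Klk1, for Klk1 and 6 paralogs.
Klk1: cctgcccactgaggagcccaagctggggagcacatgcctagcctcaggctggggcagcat
Klk1b5: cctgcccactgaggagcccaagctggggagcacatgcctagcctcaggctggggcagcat
Klk1b3: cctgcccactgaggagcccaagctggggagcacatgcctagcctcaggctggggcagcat
Klk1b24: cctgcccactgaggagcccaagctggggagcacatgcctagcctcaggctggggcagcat
Klk1b27: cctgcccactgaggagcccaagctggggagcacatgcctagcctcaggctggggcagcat
Klk1b4: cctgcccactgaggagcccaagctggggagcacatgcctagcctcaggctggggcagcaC
Klk1b26: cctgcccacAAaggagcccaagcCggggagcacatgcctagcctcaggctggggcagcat
Klk1b3, Klk1b5, Klk1b24 and Klk1b27 were identical to Klk1 over these 60 bases, Klk1b4 differed at 1 base and Klk1b26 at 3.

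The stretch that best separates Klk1 from Klk1b5 lies near the end of the coding sequence, at coding bases 716 to 775 of Klk1 (chr7:44229499-44229558), and is shown for the genes with the highest counts.
Klk1: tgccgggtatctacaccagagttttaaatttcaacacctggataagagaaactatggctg
Klk1b5: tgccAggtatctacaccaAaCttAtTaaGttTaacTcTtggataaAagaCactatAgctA
Klk1b4: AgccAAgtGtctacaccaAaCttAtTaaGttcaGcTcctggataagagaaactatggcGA
Klk1b3: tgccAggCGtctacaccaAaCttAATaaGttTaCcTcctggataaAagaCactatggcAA
Here Klk1b5 and Klk1b4 each differed from Klk1 at 13 of 60 bases and Klk1b3 at 16. Over the whole coding sequence, identity to Klk1 was 95.1% for Klk1b5, 90.2% for Klk1b4, 88.6% for Klk1b3, 86.2% for Klk1b24, 85.5% for Klk1b27, 85.2% for Klk1b1, 84.7% for both Klk1b11 and Klk1b22, and 83.4% for Klk1b26. The longest unbroken run shared with Klk1 was 145 bases in Klk1b5, 103 in Klk1b11, 85 in Klk1b3, 84 in Klk1b4, 82 in both Klk1b24 and Klk1b27, 70 in Klk1b1, 50 in Klk1b22 and 43 in Klk1b26. The order of run lengths thus differed from that of identity, with Klk1b11 second in run length.

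Klk1 was by far the most abundant member, with its lowest levels in WT SI and its highest in colon. Levels are CPM, counts per 1e6 of a library's total after scaling that total by the trimmed mean of M values (TMM) over all 24 libraries. In WT SI, Klk1 lay between 631 and 829 CPM with a median of 734. In 9S/T-A SI it lay between 941 and 1413 CPM with a median of 1059. In WT colon the lowest library had 2509, the median was 3530 and the highest 3974 CPM, and in 9S/T-A colon the corresponding values were 2904, 3716 and 4504 CPM. The SI groups did not overlap with each other or with either colon group, whereas the colon groups overlapped over most of their range. In colon the library numbered 7 was the lowest of its group in both genotypes.

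Counts behind these levels ran from 20268 to 296526 for Klk1 in a library, so counting error was small beside the spread between libraries. In bulk RNA of sorted cells, a lower level from fewer cells of a type and one from less RNA per cell cannot be told apart.

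Klk1b5, the closest copy of Klk1, was the next in abundance. It had 77.1 to 98.5 CPM in WT SI (median 86.7), 113 to 174 in 9S/T-A SI (median 125), 324 to 512 in WT colon (median 451) and 361 to 592 in 9S/T-A colon (median 481). The groups stood in the same order as for Klk1, with the SI genotypes apart and the colon genotypes overlapping.

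Klk1b4 and Klk1b3 came next. Klk1b4 had 22.0 to 28.5 CPM in WT SI (median 23.7), 34.6 to 50.4 in 9S/T-A SI (median 35.7), 96.7 to 148 in WT colon (median 135) and 106 to 175 in 9S/T-A colon (median 143). Klk1b3 had 18.5 to 23.7 CPM in WT SI (median 21.4), 29.9 to 40.2 in 9S/T-A SI (median 31.5), 73.7 to 116 in WT colon (median 99.9) and 81.5 to 131 in 9S/T-A colon (median 108). Both had the group order of Klk1.

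Klk1b24, Klk1b27 and Klk1b11 were lower. Klk1b24 had 5.93 to 8.19 CPM in WT SI (median 7.25), 8.92 to 13.6 in 9S/T-A SI (median 11.1), 25.5 to 39.1 in WT colon (median 35.5) and 28.5 to 47.2 in 9S/T-A colon (median 36.5). Klk1b27 had 4.03 to 5.86 CPM in WT SI (median 5.05), 6.28 to 10.3 in 9S/T-A SI (median 8.31), 18.8 to 30.0 in WT colon (median 25.5) and 19.8 to 37.9 in 9S/T-A colon (median 27.3). Klk1b11 had 1.53 to 3.56 CPM in WT SI (median 2.59), 2.54 to 5.11 in 9S/T-A SI (median 4.29), 9.56 to 15.8 in WT colon (median 14.2) and 10.6 to 17.5 in 9S/T-A colon (median 13.9). Of the members above 1 CPM in SI, Klk1b11 alone had overlapping genotypes there.

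Klk1b26 was close to the floor of detection in every group. Klk1b1 and Klk1b22 were close to it in SI, and in colon they were above it but under 1 CPM. Klk1b1 had 2 to 38 counts in a library and a mean of 0.0854 CPM in WT SI, 0.207 in 9S/T-A SI, 0.433 in WT colon and 0.440 in 9S/T-A colon. Klk1b22 had 0 to 29 counts, was at 0 in 2 libraries, and had a mean of 0.0339 CPM in WT SI against 0.289 in 9S/T-A colon. Klk1b26 was at 0 in 11 of 24 libraries and had 55 counts in all. A count of 0 allows up to 3 counts, which is 0.0369 to 0.0958 CPM depending on the library, and such limits cover counting error only.

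**Figure D1:**
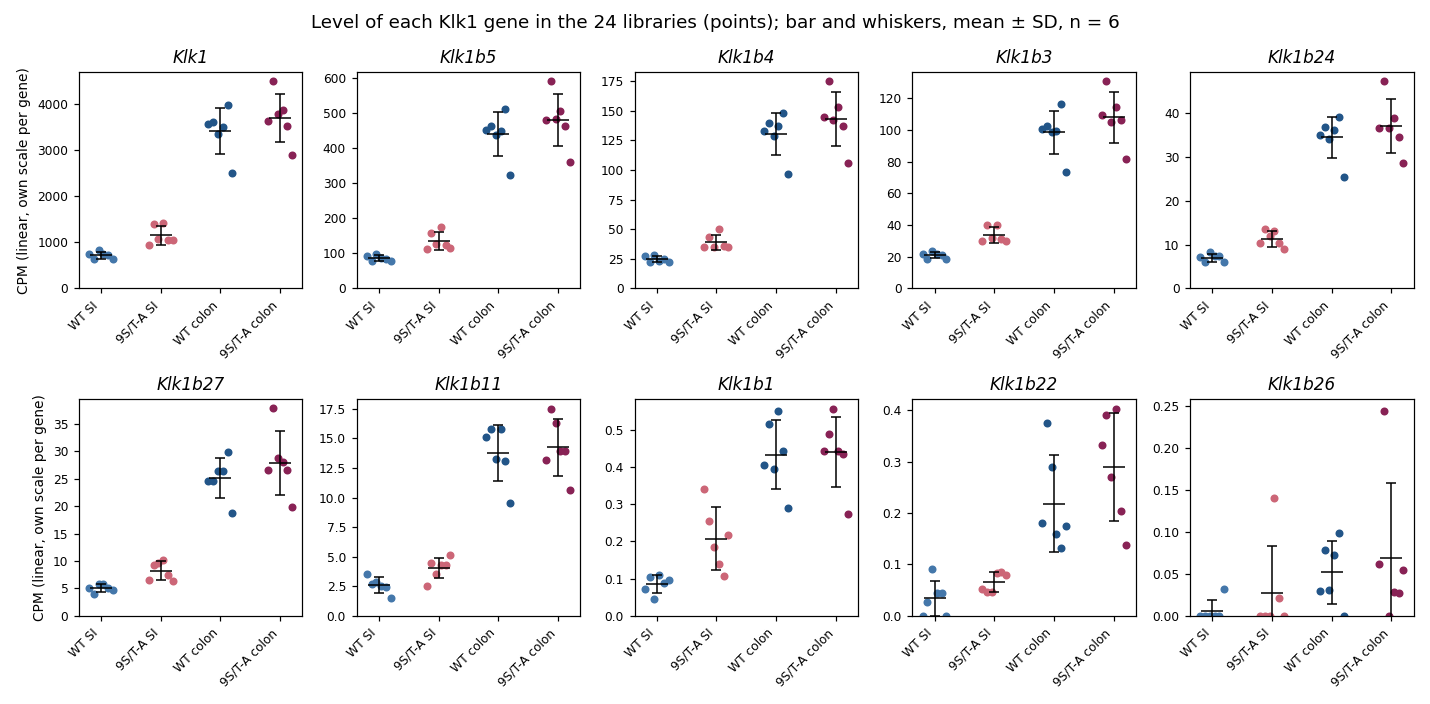
CPM (linear axes, each gene on its own scale starting at 0) of the 10 Klk1 genes in the 24 libraries, 1 point per library, with mean and SD (n = 6) as bar and whiskers. Klk1, Klk1b5, Klk1b4, Klk1b3, Klk1b24, Klk1b27 and Klk1b11 had the same order of groups, with WT SI lowest and both colon groups highest, and Klk1b26 was at 0 in 11 libraries.

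Between genes, levels were compared per kb of counted exon. In WT colon the mean was 3898 ± 560 CPM per kb for Klk1, 510 ± 72.3 for Klk1b5, 156 ± 21.2 for Klk1b4, 111 ± 15.5 for Klk1b3, 39.3 ± 5.38 for Klk1b24, 28.5 ± 4.18 for Klk1b27, 16.0 ± 2.77 for Klk1b11, 0.500 ± 0.107 for Klk1b1, 0.255 ± 0.110 for Klk1b22 and 0.0591 ± 0.0426 for Klk1b26 (SD, n = 6). Neighbours in this order overlapped in their ranges for Klk1b4 and Klk1b3 (115 to 177 against 83.0 to 131), for Klk1b24 and Klk1b27 (29.1 to 44.7 against 21.3 to 34.0), and for Klk1b1 and Klk1b22 (0.336 to 0.634 against 0.154 to 0.439). The other neighbouring pairs did not overlap.

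Summed over the 10 genes, the family had 868 ± 86.8 CPM in WT SI, 1384 ± 238 in 9S/T-A SI, 4157 ± 594 in WT colon and 4517 ± 646 in 9S/T-A colon (SD, n = 6). Klk1 made up 83.1% ± 0.233 of the family counts in WT SI, 83.2% ± 0.496 in 9S/T-A SI, 82.1% ± 0.187 in WT colon and 82.1% ± 0.373 in 9S/T-A colon. The sum thus largely restates Klk1.

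The paralogs with the highest counts varied little in proportion to Klk1 between libraries, although Klk1 itself varied widely between groups, and the lower members varied more. Klk1b5 counts were 11.1% to 13.2% of Klk1 counts over the 24 libraries, Klk1b4 counts 3.08% to 3.96% and Klk1b3 counts 2.77% to 3.17%. The highest library was 1.19 times the lowest for Klk1b5, 1.29 times for Klk1b4 and 1.14 times for Klk1b3. Proportions of the lower members ranged from 0.848% to 1.12% for Klk1b24, 0.598% to 0.906% for Klk1b27 and 0.237% to 0.486% for Klk1b11, and the highest library was 1.32, 1.51 and 2.05 times the lowest for these genes in that order. At very low counts, Klk1b1 ran from 0.00546% to 0.0362% (6.64 times), and Klk1b22 and Klk1b26 from 0% to 0.0109% and 0.00990%. Klk1b21 and Klk1b9, which are outside the list, were at 1.08% to 1.33% and 0.343% to 0.483%.

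Small differences in proportion between tissues were present. Klk1b5 was 11.1% to 12.3% of Klk1 in the SI libraries and 12.4% to 13.2% in the colon libraries, with no overlap. Klk1b4 was 3.08% to 3.68% in SI and 3.63% to 3.96% in colon, with overlap at the edges. Klk1b3 was 2.83% to 3.17% in SI and 2.77% to 3.01% in colon and so did not separate the tissues.

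The counting and the sequences bear on these proportions. Reads were 50 bases long, and per the file headers the primary alignment of each read was counted, a setting under which a read that fits several genes equally well is counted at 1 of them. Of the 827 windows of 50 bases in the counted exons of Klk1, 570 occurred in no other Klk1 gene. Klk1b5 held 170 of the 827 windows exactly, Klk1b3 85, Klk1b4 62, Klk1b24 57, Klk1b11 54, Klk1b27 33, Klk1b1 21, Klk1b22 1 and Klk1b26 0. When up to 2 mismatches were allowed, Klk1b5 held 65.7% of the Klk1 windows and Klk1b4 34.2%, against 8.59% for Klk1b26. No window of the 10 genes occurred in a transcript outside the Klk1 genes.

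If every read came from Klk1 and reads of shared windows were divided evenly among the genes that hold them, the counts of Klk1b5 would be 9.05% of those of Klk1, and 12.8% was measured over all libraries. For Klk1b3 the corresponding values were 3.66% and 2.905%, for Klk1b4 2.25% and 3.78%, for Klk1b24 1.46% and 0.999%, and for Klk1b27 0.864% and 0.739%. Klk1b5 and Klk1b4 were thus 1.41 and 1.68 times the even division, and Klk1b3, Klk1b24 and Klk1b27 were 0.794, 0.683 and 0.855 times it. Klk1b11 stood further below, at 0.388% against 2.12%, and Klk1b1 was at 0.0127% against 0.373%. Across the 9 paralogs, the measured proportion had a Spearman correlation of 0.933 with the even division and 0.971 with coding identity to Klk1, which describes genes that share a cluster, an aligner and reads. What part of the paralogs' counts came from Klk1 transcripts was not tested, so each paralog's count is uncertain and the paralogs are not independent of Klk1 in any comparison below.

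**Figure D2:**
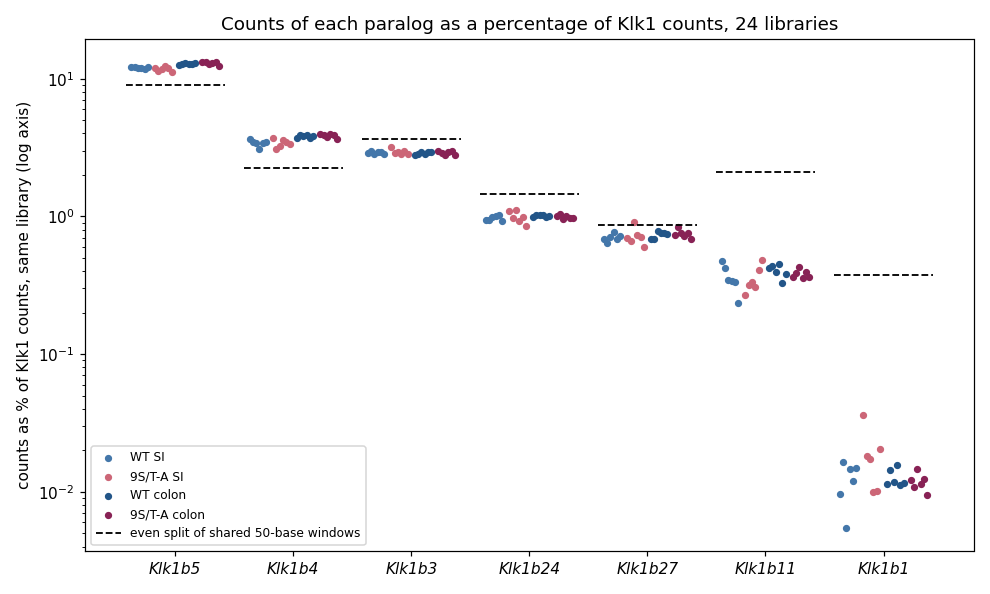
Counts of 7 paralogs as a percentage of Klk1 counts in the same library (log axis), 1 point per library and colour per group, with a dashed line at the proportion that an even division of exactly shared 50-base windows would give. The points of Klk1b5, Klk1b4 and Klk1b3 span less than 1.3 times from lowest to highest, and Klk1b11 and Klk1b1 lie well below their dashed lines.

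**Figure D3:**
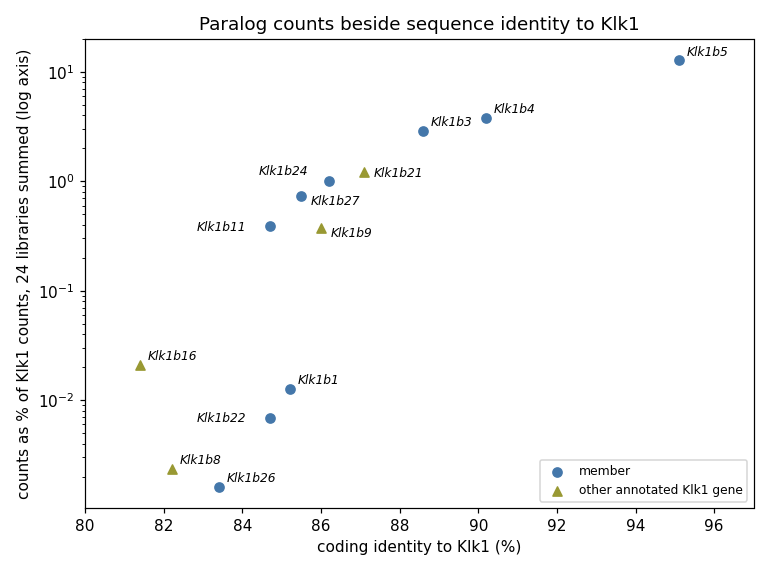
Counts summed over 24 libraries as a percentage of Klk1 counts (log axis) against coding identity to Klk1 in percent, for the 9 other members (circles) and 4 further annotated Klk1 genes (triangles). Klk1b5 has the highest identity (95.1%) and the highest proportion (12.8%), and the members under 0.1% have identities of 83.4% to 85.2%.

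The genotype difference in SI, on which the genes were chosen, was as follows. Klk1 was 1.59-fold higher in 9S/T-A than in WT (log2 difference 0.67 ± 0.11, standard error), Klk1b3 1.61-fold, Klk1b4 1.58-fold, Klk1b5 1.56-fold, Klk1b24 1.61-fold, Klk1b27 1.62-fold and Klk1b11 1.55-fold. In all of these except Klk1b11, the lowest of the 6 9S/T-A libraries was above the highest of the 6 WT libraries. The share of all genes tested that separated the genotypes in this way was not counted, so nothing is read from the separation. By edgeR's quasi-likelihood test with Benjamini-Hochberg adjustment over all genes tested, called at an adjusted p under 0.05, 6 of the 10 members were called higher and 1.03% of the 16236 genes tested were, a count that restates how the genes were chosen and from which nothing is read. Klk1b27 was the called member nearest the threshold (5.06 ± 0.685 against 8.23 ± 1.71 CPM) and Klk1b11 the member just outside (2.59 ± 0.656 against 4.04 ± 0.883 CPM, SD, n = 6). Klk1b1, Klk1b22 and Klk1b26 did not pass the filter on low counts in SI. The family sum was higher by 0.67 on the log2 scale, and by 0.66 without Klk1.

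In colon, which the choice did not use, the same genotype comparison showed no called member. Klk1 was at 3706 ± 520 CPM in 9S/T-A against 3414 ± 491 CPM in WT (SD, n = 6), a log2 difference of 0.14 ± 0.11 (standard error) with an adjusted p of 0.877 by edgeR's quasi-likelihood test. For Klk1b5 the difference was 0.15 ± 0.11, for Klk1b4 0.15 ± 0.11, for Klk1b3 0.15 ± 0.10, for Klk1b24 0.13 ± 0.11 and for Klk1b27 0.17 ± 0.13. The 9 members that passed the filter had differences of 0.04 to 0.42 with adjusted p from 0.806 to 0.9998, and 0 of the 10 members were called, beside 0.318% of the 16997 genes tested. No member had an unadjusted p under 0.05 in this comparison, and DESeq2 called 0 members as well. The family sum differed by 0.12 on the log2 scale, less than its spread between libraries of one group (0.218).

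Colon libraries had several times more Klk1 family RNA than SI libraries of the same genotype. Both tissue comparisons contain SI libraries that were an arm of the difference on which the genes were chosen, the WT libraries as its lower arm, so they are not independent of the choice. In WT, Klk1 was 4.63-fold higher in colon (log2 difference 2.21 ± 0.12, adjusted p = 2.95e-10), Klk1b5 4.97-fold (2.31 ± 0.11), Klk1b4 5.17-fold (2.37 ± 0.10), Klk1b3 4.58-fold (2.20 ± 0.10), Klk1b24 4.78-fold (2.26 ± 0.11), Klk1b27 4.85-fold (2.28 ± 0.12) and Klk1b11 5.17-fold (2.37 ± 0.17). Klk1b1 rose by a log2 difference of 2.29 ± 0.28 from very low counts (adjusted p = 4.06e-06, edgeR). Thus 8 members passed the filter and were called higher, where 33.1% of the 16979 genes tested were called higher and 63.6% were called in either direction. Every colon library was above every SI library for the 8 called members, and also for Klk1b22, which did not pass the filter. The share of all genes tested that separated the tissues in this way was not counted, so nothing is read from the separation.

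In 9S/T-A, colon was again above SI, here against the higher arm of the SI difference. Klk1 was 3.16-fold higher in colon (log2 difference 1.66 ± 0.14, adjusted p = 7.27e-08 by edgeR's quasi-likelihood test), Klk1b5 3.48-fold, Klk1b4 3.59-fold, Klk1b3 3.13-fold, Klk1b24 3.20-fold, Klk1b27 3.33-fold and Klk1b11 3.45-fold. Klk1b22 rose by 2.07 ± 0.36 and Klk1b1 by 1.05 ± 0.29 on the log2 scale. The 9 members that passed the filter were called higher, beside 32.9% of the 16938 genes tested called higher and 60.9% in either direction. Klk1b1 overlapped between tissues in this genotype, and the other 8 did not. Here too the share of all genes that separated the tissues was not counted, so nothing is read from the separation.

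The size of the tissue difference depended on scaling. With plain library totals, the median of all genes moved to 0.74 in WT and 0.85 in 9S/T-A, 86.5% and 88.4% of the calls were then in the direction of colon instead of 52.1% and 54.0%, and the log2 ratio of the family sum was 2.94 instead of 2.26 in WT and 2.48 instead of 1.71 in 9S/T-A. Relative to the median gene, the family sum was higher in colon by 2.23 in WT and 1.66 in 9S/T-A as scaled here, and by 2.20 and 1.63 with plain totals.

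**Figure D4:**
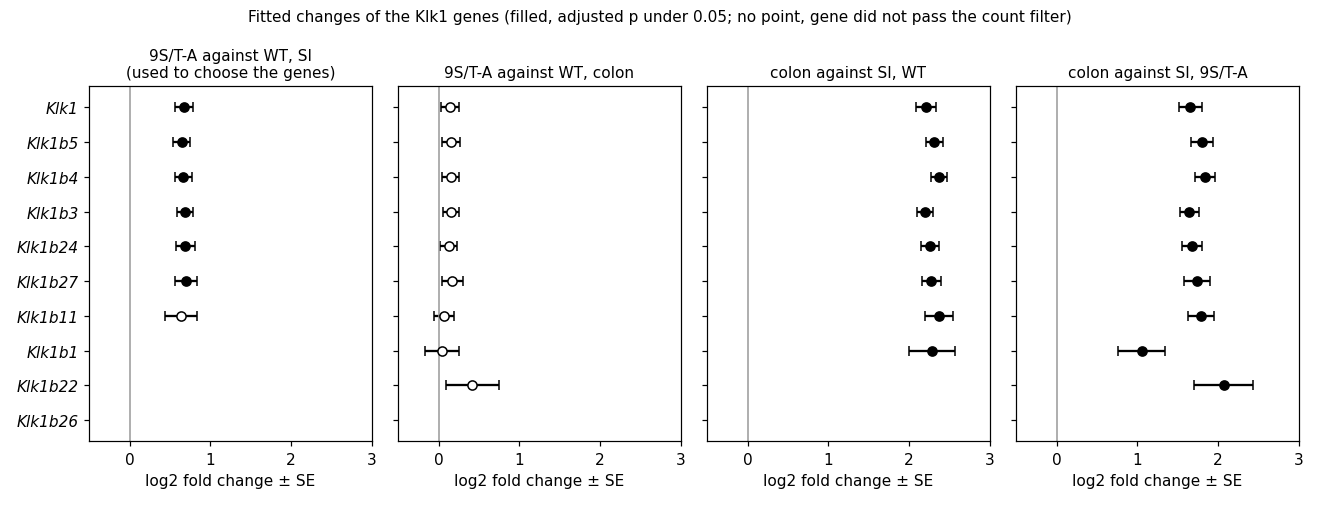
Log2 fold change with standard error (whiskers) of each Klk1 gene in the genotype comparison of SI and of colon and in the tissue comparison of WT and of 9S/T-A, all on the same axis; filled points had an adjusted p under 0.05 and genes without a point did not pass the count filter. Filled points of the SI genotype comparison restate how the genes were chosen. The colon genotype differences lie between 0.04 and 0.42 with no filled point, and the tissue differences lie between 1.05 and 2.37.

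No member was called between male and female libraries. Klk1b genes of the submandibular gland are known for their androgen dependence, so the labels' sex was compared within each tissue (6 female and 6 male libraries, genotypes balanced). In SI, Klk1 was at 924 CPM in females and 948 CPM in males, and the 7 members that passed the filter had log2 differences, male minus female, of -0.01 to 0.11 with adjusted p of 0.778 to 0.986. In colon, Klk1 was at 3331 CPM in females and 3790 CPM in males, a log2 difference of 0.18 ± 0.11 (adjusted p = 0.358, edgeR). The 9 tested members, which share reads, had differences of 0.17 to 0.28. In both genotypes the colon library lowest in Klk1 was number 7, a female (2509 CPM in WT, 2904 CPM in 9S/T-A). The part of these libraries together in the sex difference was not tested. Klk1b27 had the lowest adjusted p, 0.218, and a log2 difference of 0.26 ± 0.11. None of the 10 members was called in SI or in colon with edgeR or DESeq2, where 0.0526% and 0.263% of all genes tested were called by edgeR. At an unadjusted p under 0.05, Klk1b27 in colon was the single member.

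The substrate genes of the kallikrein-kinin system were at or near 0 in both tissues, and the B2 receptor gene was low in SI and nearly missing from colon. Kng1 and Kng2, the kininogen genes, had no count in 24 and 23 of 24 libraries respectively. Bdkrb2, the B2 receptor gene, was at 0.943 to 1.96 CPM in the WT and 1.21 to 3.79 CPM in the 9S/T-A libraries of SI, but had no count in WT colon and at most 0.0151 CPM in 9S/T-A colon. Bdkrb1, the B1 receptor gene, reached at most 0.383 CPM in SI and had no count in colon. Klkb1, which encodes plasma kallikrein, was not analysed here.

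Peptidases that degrade kinins were present, with lower levels in colon than in SI. Ace was at 159 ± 91.6 CPM in WT SI and 59.5 ± 13.6 CPM in WT colon (log2 difference -1.44 ± 0.31, adjusted p = 6.74e-04 by edgeR's quasi-likelihood test). Mme fell by 5.08 ± 0.38 on the log2 scale, from 62.0 ± 36.9 to 1.86 ± 0.417 CPM (SD, n = 6). Of the 14 system genes that were counted, 10 were tested in WT, and 8 of these were called lower and 1 higher in colon. Over all genes, 5169 of the 16979 tested were called lower in colon, and 63.6% were called in either direction. For these brush border enzymes the SI libraries varied widely (Ace, 66.8 to 287 CPM in WT SI), and the absorptive cell markers moved in the same direction between tissues, with a summed level of 2296 to 4587 CPM in WT SI and 422 to 518 CPM in WT colon. The part of absorptive cells in these tissue differences was not tested.

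By genotype, 1 of the 32 listed system, substrate and inhibitor genes was called in SI (15 tested, 1.94% of all genes called in either direction), and none in colon. It was Xpnpep2, a membrane aminopeptidase that acts on bradykinin, at 76.2 ± 13 CPM in 9S/T-A SI against 54.2 ± 7.27 CPM in WT SI (SD, n = 6), a log2 difference of 0.49 ± 0.12 with an adjusted p of 0.0466 by edgeR's quasi-likelihood test. Bdkrb2 differed by 0.67 ± 0.27 in SI with an adjusted p of 0.233, Ace by 0.28 ± 0.35 (0.738) and Mme by 0.41 ± 0.37 (0.631).

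Substrates and targets of kallikreins included genes with higher levels in colon. Egf, whose precursor is processed by kallikrein-like enzymes, had 5.08 to 8.63 CPM in WT SI and 26.8 to 39.9 CPM in WT colon (log2 difference 2.15 ± 0.13, adjusted p = 1.34e-09, edgeR). Scnn1g, the gamma subunit of the epithelial sodium channel, was near 0 in SI and had 2.04 to 8.69 CPM in WT colon. Of 9 listed, 5 were tested in WT, of which 2 were called higher and 2 lower in colon, beside the same 63.6% of all genes, so the count is not particular to the list. Among 8 inhibitors, 2 were tested: Spink1, a secreted trypsin inhibitor, rose from 53.5 ± 17.5 to 504 ± 179 CPM (SD, n = 6), and Serping1, the C1 inhibitor, was called lower at under 1 CPM. No other inhibitor of the list passed the filter.

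**Figure D5:**
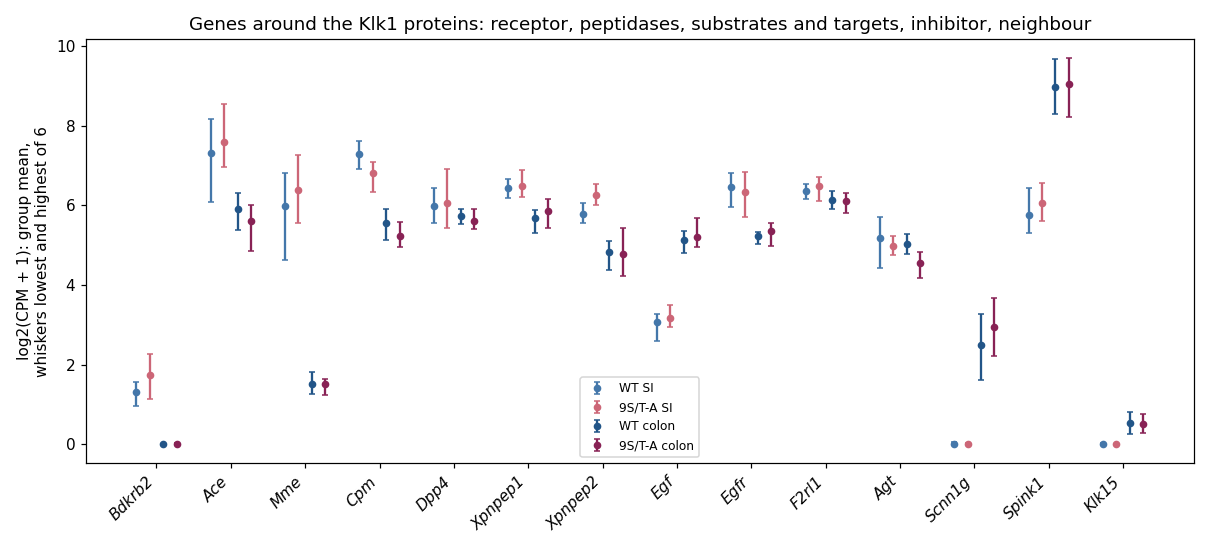
Levels as log2(CPM + 1) of 14 genes around the Klk1 proteins in the 4 groups, with the group mean as a point and the lowest and highest of 6 libraries as whiskers. Ace, Mme and Cpm are lower in colon, Egf, Scnn1g, Spink1 and the neighbour Klk15 are higher, and Bdkrb2 is at or near 0 in both colon groups.

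No gene near the cluster was called by genotype. Among genes that start within 1 Mb of the outer ends of the members, other Klk1 genes aside, 52 were tested in SI and 57 in colon, and 0 were called by edgeR in either tissue (7 and 6 at an unadjusted p under 0.05), with a median log2 difference of -0.01 in SI. Of all genes tested, 1.94% were called by genotype in SI and 0.318% in colon. At such shares few or no calls would fall among so few genes, so 0 is not particular to the neighbours. Between tissues in WT, 55 were tested, 19 were called higher and 17 lower in colon (65.5% in either direction, beside 63.6% of all genes). Klk15, another kallikrein gene 292 kb before Klk1, had no count in 9S/T-A SI and a mean of 0.443 CPM in WT colon (log2 difference in WT 6.10 ± 0.73). The gene that starts 4.5 kb after the start of Klk1, 1700028J19Rik, rose by 1.24 ± 0.22. Others called higher included Siglecg, Etfb, Vsig10l, Gm25386, 2410002F23Rik, Clec11a, Syt3, Josd2, Fam71e1, Il4i1, Akt1s1, Fuz, Bcl2l12, Prr12, Rpl13a and Dkkl1. Those called lower included Nkg7, Ceacam18, Spib, Pold1, Nr1h2, Myh14, 2310016G11Rik, Zfp473, Atf5, Ap2a1, Irf3, Rras, Prrg2, Aldh16a1 and Tead2.

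Other genes with a pattern like that of the family sum were ranked by Pearson's r of log2(CPM + 1) over the 24 libraries among 17940 genes outside the family. The first 5 were Slc50a1, a sugar transporter (r = 0.984), S100a16 (0.983), Fkbp9 (0.983), Yipf1 (0.982) and Hpd, a tyrosine-catabolism enzyme (0.982). Slc50a1 averaged 79.98 CPM (WT) and 98.1 CPM (9S/T-A) in SI against 150 and 155 CPM in colon, and Hpd 71.4 and 88.0 against 248 and 256 CPM. When group means were subtracted first, the 5 most alike were Hcfc1r1 (r = 0.937), Gm10080 (0.886), Yipf1 (0.877), Pcbd1 (0.866) and Pafah1b3 (0.857). All these libraries share the sort, the groups and, by number, deviations across tissues and in part across genotypes. The 24 deviations are thus not independent, and the values are descriptions of rank. By the same measure of deviations from group means, r with Klk1 was 0.986 for Klk1b5, 0.977 for Klk1b3 and 0.949 for Klk1b4. It was 0.672 for Klk1b11 and 0.300 for Klk1b1. Counts in a library ran from 2467 to 39084 for Klk1b5, but from 48 to 1095 for Klk1b11 and from 2 to 38 for Klk1b1. The part of counting error and of shared reads in these values of r was not tested.

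Markers of the sorted cells and of other cell types were read in the same libraries. Library totals ran from 36 to 65.8 M (1e6) counts. Atoh1 was at 92.3 ± 15.5 CPM in WT SI, 75.0 ± 11.04 in 9S/T-A SI, 103 ± 15.7 in WT colon and 85.9 ± 13.6 in 9S/T-A colon (SD, n = 6), a transcript level that does not show the altered protein sites. Epcam was at 770 to 1111 CPM in all libraries and Muc2, the goblet mucin, at 10292 to 38651 CPM. The 8 goblet markers summed to 312010 to 440310 CPM in WT SI and 317270 to 503130 in 9S/T-A SI, with 0 of 8 called, and the 8 Paneth markers to 60242 to 101860 and 48684 to 76243 CPM, with 4 of 8 called lower in 9S/T-A SI. Of the 6 enteroendocrine markers, Sct, the secretin gene, was called higher in 9S/T-A SI (210 against 95.1 CPM in WT SI) and Gcg, the glucagon gene, lower (0.968 against 6.09 CPM). The 4 tuft markers were all lower in 9S/T-A SI, summing to 43.0 ± 21.9 against 77.5 ± 20.6 CPM (SD, n = 6), with Pou2f3 called, and the 6 absorptive markers were all higher, at 3996 ± 750 against 3180 ± 907 CPM, with 0 called. Between tissues in WT, where Klk1 was higher in colon, the goblet sum was 352120 ± 57367 CPM in SI and 44350 ± 7831 in colon (5 of 8 called lower) and the Paneth sum 82128 ± 16572 and 424 ± 314 CPM (8 of 8 called lower). Acinar cells of the pancreas are a rich source of Klk1, and Prss1 and Ptf1a of the 14 acinar markers had no count in any library. The acinar sum was 6.91 to 31.8 CPM in SI and 93.3 to 203 CPM in colon, nearly all of it Cela1 in colon, and 11 to 13 of the 14 markers averaged under 1 CPM in each group. The 6 stromal markers summed to at most 0.807 CPM. Of the 6 leukocyte markers, Ptprc was at most 9.74 CPM, Lyz2 made up nearly all of the sum in SI (2318 of 2393 CPM in WT) and Cd74, of MHC class II, was called higher by genotype in colon, with 4.84 to 463 CPM in 9S/T-A against 1.69 to 8.75 CPM in WT (log2 difference 4.56 ± 0.81, adjusted p = 0.0281 by edgeR's quasi-likelihood test). The part of these cell types in the differences of the Klk1 genes was not tested.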

How the data were processed

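RNA-seq counts of 24 libraries were analysed. Per the submitters' processing notes, reads were aligned to GRCm38.p3 with TopHat2 2.1.1 and counted with Subread 1.5.2, and DESeq2 1.14.1 was used in the study. The deposited values are raw counts per Ensembl gene that the authors made with featureCounts over exons, by strand, from primary alignments, without normalization. The annotation release is not given in the sources used here. GENCODE M21 named 97.96% of 45513 genes. Window sequences came from its transcripts.

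Groups followed the labels. Genes were filtered (filterByExpr), scaled (TMM) and tested with edgeR 4.0.16 in R 4.3.3 (quasi-likelihood, two-sided, non-robust), and adjusted p (Benjamini-Hochberg, over all genes tested) under 0.05 was called. Levels are CPM with TMM over 24 libraries. Code was tested on simulated data. Of 60 same-group library pairs, 0 were identical. The design text counts 6 mice in all, but each genotype has libraries numbered 2 to 7, and no label says whether a number marks a mouse. How many mice a group of 6 libraries came from is thus not known, and p-values measure only the spread between these libraries. Same-numbered SI and colon libraries deviated together (correlations of 0.168 to 0.568 in WT and 0.159 to 0.649 in 9S/T-A, over 0.1 in every pair), so numbers pair the tissues. All 10 members are named, with kinin genes, called list genes, called neighbours and the 5 genes most alike. Members and lists were chosen with earlier results of these data known. Alternatives were DESeq2 1.42.0, other scalings and filters, blocks, sex, and leaving out each library. Windows, proportions to Klk1 and even division were added after the levels were seen. Some listed or neighbouring genes are not reported here.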

Additional observations from a re-analysis of the deposited data

Results flagged for a closer look

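Klk1b26 had a library far from the others of its group by Dixon's ratio in 9S/T-A SI (replicate 5, 0.140 CPM from 5 counts) and in 9S/T-A colon (replicate 3, 0.244 CPM from 15 counts). Replicate 7 of WT SI, at 0.0319 CPM, also met the criterion, but it held 1 count where the other 5 libraries had none, which is within what a count of 0 allows and cannot be told from them. Of the 44 combinations of gene or sum and group examined, these 3 stood out. The criterion marks about 1 in 20 by chance only for independent, normally distributed values. Counts this near 0 are not such values, so the number flagged is not judged against that rate. Klk1b26 shares 0 of the 827 Klk1 windows exactly and had 55 counts in all libraries.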

How the results depend on the processing

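In the SI genotype comparison on which the genes were chosen, 5 to 8 of 10 members were called under the alternatives, 5 to 7 when 1 library was left out (0 to 0 in colon, 9 to 9 for tissue in 9S/T-A, 8 to 9 for tissue in WT, and 0 to 0 for sex in both tissues). Klk1b27 lost its call with plain library totals (adjusted p = 0.0656, edgeR) and without 9S/T-A SI libraries 3, 4 or 5 or WT SI library 3 (0.0504 to 0.0552). Klk1b11 gained one with DESeq2 (0.0377), in 1 fit of all 24 libraries (0.047) and without 9S/T-A SI library 2 (0.0413). For genotype by tissue, which contains that SI difference, 0 members were called, 1 with DESeq2 and 5 with the replicate block. Over all genes, this comparison called 74 of 17953 tested, 258 of 17331 with DESeq2 and 342 of 17953 with the block. Members share reads, so their calls are not separate. Same-numbered libraries of the genotypes within a tissue correlated at -0.095 to 0.696 in SI and 0.02 to 0.853 in colon. The mean was 0.192 in SI and 0.412 in colon, against -0.035 and -0.066 for differently numbered pairs. On average they thus deviated together, and what a shared number stands for was not tested. The block left 6 members called by genotype in SI and 0 in colon. It changed no tissue call of a member (8 in WT, 9 in 9S/T-A). Log2 ratios of the family sum, leaving out 1 library, ranged from 0.60 to 0.72 (SI genotype), 0.05 to 0.18 (colon genotype), 2.21 to 2.34 (tissue, WT) and 1.64 to 1.78 (tissue, 9S/T-A). Plain library totals gave 2.94 and 2.48 for the tissue ratios. The colon genotype difference of Klk1b1 turned to -0.0076 with plain totals and ranged from -0.044 to 0.14 when 1 library was left out (below 0 without 9S/T-A colon library 4 or WT colon library 7), and that of Klk1b11 from -0.0073 (without WT colon library 7) to 0.13. The cause of these changes was not tested. Over all genes, DESeq2 called 780 in SI and 247 in colon by genotype where edgeR called 315 and 54, and the block 477 and 385. No paired analysis was possible for sex because a number belongs to 1 sex.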
